A study of Mus musculus with 6 samples.

Results

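Retina and lens antigens are proteins that belong to the eye and that are known as targets or candidate targets of autoimmunity. The 8 genes followed here were Rcvrn, Sag, Gnat1, Pde6b and Rbp3 of the retina, and Cryaa, Crybb1 and Cryab of the lens, taken as every non-control row of the scanner files that carries one of these gene names. They had 13 probes in all, among 27597 genes on the arrays. Of the 8 genes, 6 passed the filter under which 21395 genes were tested, and Pde6b and Rbp3 did not.

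The genes were compared between sorted epithelial cells of the thymus and of the thyroid of C57BL/6 mice, with 3 arrays for each tissue and no transgene, mutation or treatment named in the labels. The thymic cells came from the medulla and were Epcam+, UEA1+ and CD45-, while the thyroid cells were Epcam+ and CD45-, and dead cells were gated out with Fluorogold in both sorts. Thymic replicates 1 and 2 were pools of 6 thymi each and replicate 3 a pool of 2, and each thyroid replicate was a pool of 20 thyroids, so a value describes a pool and not an animal. The labels call the replicates independent, and the p-values measure only the spread between these pools.

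Rods turn light into an electrical signal through a cascade. Light leads to the activation of transducin, transducin activates phosphodiesterase 6, and the fall in cyclic GMP closes cation channels. Arrestin helps to end the response. Crystallins are the packed structural proteins that keep the lens clear. Medullary thymic epithelial cells are known to transcribe many genes of other organs, partly under the regulator AIRE, and so to show the products to maturing T cells; the products of Sag (S-antigen) and Rbp3 are known antigens of experimental autoimmune uveitis.

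Levels are given as log2 of the background-subtracted signal minus the log2 of that array's 75th percentile over probes, so 0 is the 75th percentile, and levels of different genes are not compared because each probe has its own response. A probe was counted as above background where the scanner software marked its signal as exceeding background by 13 background standard deviations, and a weaker flag of the same software marks any signal significantly over background. Testing was limited to genes with a probe that passed the stronger flag on every array of the thymic group, the thyroid group or both. The 75th percentile lay between 636.4 and 721.6 signal units in the thymic group and between 446.4 and 760.7 in the thyroid group. Between 79.1% and 81.6% of spots were above background per thymic array against 65.9% to 73.1% per thyroid array, with 0 saturated spots. The small number of arrays limits the precision.

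The sort labels were checked against marker genes. Aire was at 6.13 ± 0.16 (SD, n = 3) in thymic and -5.95 ± 0.45 in thyroid cells, and Tg, which encodes thyroglobulin, at -1.74 ± 0.09 and 9.04 ± 0.24. Epcam was above background on every array and 2.36-fold higher in the thymic cells. Ptprc, which encodes CD45, was above background on every array too and 16.6-fold higher in the thymic cells, although both sorts selected against CD45. Pecam1, an endothelial gene, was 156-fold higher in the thyroid cells.

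Several probes can be shown with their sequences because their letters set what was measured. By the coordinates in the array files, the probes shown for Cryaa, Crybb1 and Sag stretch over far more of the genome than their own length and so cross an intron, while those of Cryab and Pde6b match an unbroken stretch. Sequences and positions (build mm8) are those of the array files, 60 bases each and written 5′ to 3′, as follows.
Cryaa probe A_51_P305956 at chr17:31408371-31409734: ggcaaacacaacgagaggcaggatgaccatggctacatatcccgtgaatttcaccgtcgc
Crybb1 probe A_51_P334063 at chr5:112503938-112507668: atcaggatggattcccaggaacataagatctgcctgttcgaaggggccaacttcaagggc
Crybb1 probe A_52_P643798 at chr5:112507716-112509634: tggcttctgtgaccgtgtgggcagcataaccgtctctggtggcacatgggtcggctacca
Sag probe A_51_P511431 at chr1:89659592-89663020: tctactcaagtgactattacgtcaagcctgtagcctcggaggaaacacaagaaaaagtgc
Cryab probe A_52_P106482 at chr9:50508565-50508624: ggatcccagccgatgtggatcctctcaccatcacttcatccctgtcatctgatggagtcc
Pde6b probe A_51_P394474 at chr5:108667427-108667486: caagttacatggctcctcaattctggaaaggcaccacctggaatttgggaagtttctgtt

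Among the retinal genes, Rcvrn, a calcium sensor of photoreceptors, was far brighter on the thymic arrays. Its probe (chr11:67519438-67519499, mm8) read -0.80, -1.07 and -0.76 in the thymic samples and -6.31, -6.33 and -6.43 in the thyroid samples. The groups did not overlap, and the thyroid signals were above background on no array although all 3 carried the weaker flag. The log2 difference was 5.48 (SE 0.12), and thymic cells had at least 34.1 times the Rcvrn signal (limma, Benjamini-Hochberg adjusted p = 3.91e-07). For such a bound, each dim array was entered at the lowest signal that passed the stronger flag there, or at the probe's own signal where that was higher, and the mean of these values was compared with that of the bright arrays.

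Sag, the rod arrestin, which helps to end the light response, stood at -3.26, -3.30 and -3.32 on the thymic arrays. On the thyroid arrays the same probe read -6.04, -6.10 and -6.46, above background on none of them and with the weaker flag on all 3. The thymic values were nearly identical and all lay above the thyroid values. Thymic cells exceeded thyroid cells at least 6.27-fold, with a log2 difference of 2.91 (SE 0.14, limma adjusted p = 4.20e-06). A second Sag probe, which the array files assign to a cDNA clone (chr1:89658021-89658080, mm8), was above background on no array. It read -7.86, -8.40 and -8.18 in thymic and -6.35, -7.48 and -8.49 in thyroid cells, and these overlapping values give no level for the transcript it targets.

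Gnat1, the rod transducin alpha subunit, went the opposite way from Rcvrn and Sag. Its tested probe (chr9:107532793-107532852, mm8) read -4.05, -4.48 and -4.16 in thymic and -2.27, -2.68 and -3.23 in thyroid cells, above background on all 6 arrays. Every thyroid value exceeded every thymic value, and the thyroid values spread more (SD 0.48 against 0.22). Gnat1 was 2.84-fold higher in thyroid cells, a log2 difference of -1.50 (SE 0.26, limma adjusted p = 0.00179). The other Gnat1 probe, which spans an intron (chr9:107534760-107535039, mm8), was above background on no array. It gave 11.1, 3.99 and 2.83 signal units for thyroid cells, each with the weaker flag, and 1.91, 1.93 and 2.16 for thymic cells, each replaced by the software's surrogate for a signal not above background.

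Pde6b encodes the beta subunit of the rod phosphodiesterase. It was above background only in thymic replicate 1, so it was not part of the comparison across genes. Its signals were 12, 8.41 and 9.44 in thymic cells and 3.35, 3.12 and 2.1 in thyroid cells. The thymic signals all carried the weaker flag, and thyroid replicate 1 alone did among the thyroid samples. The values of thyroid replicates 2 and 3 are surrogates set by the software, so no size or test of the difference is given.

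Rbp3, the interphotoreceptor protein that carries retinoids between photoreceptors and pigment epithelium, was above background on no array. Its probe (chr14:32793153-32793212, mm8) gave 1.87, 2.53 and 2.19 signal units in thymic and 2.57, 2.4 and 1.77 in thyroid cells, and only thymic replicate 2 carried the weaker flag. The other 5 values are surrogates set by the software. Values of the groups overlapped, and a difference was not detectable at this signal, which does not show that the tissues are alike.

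**Figure D1:**
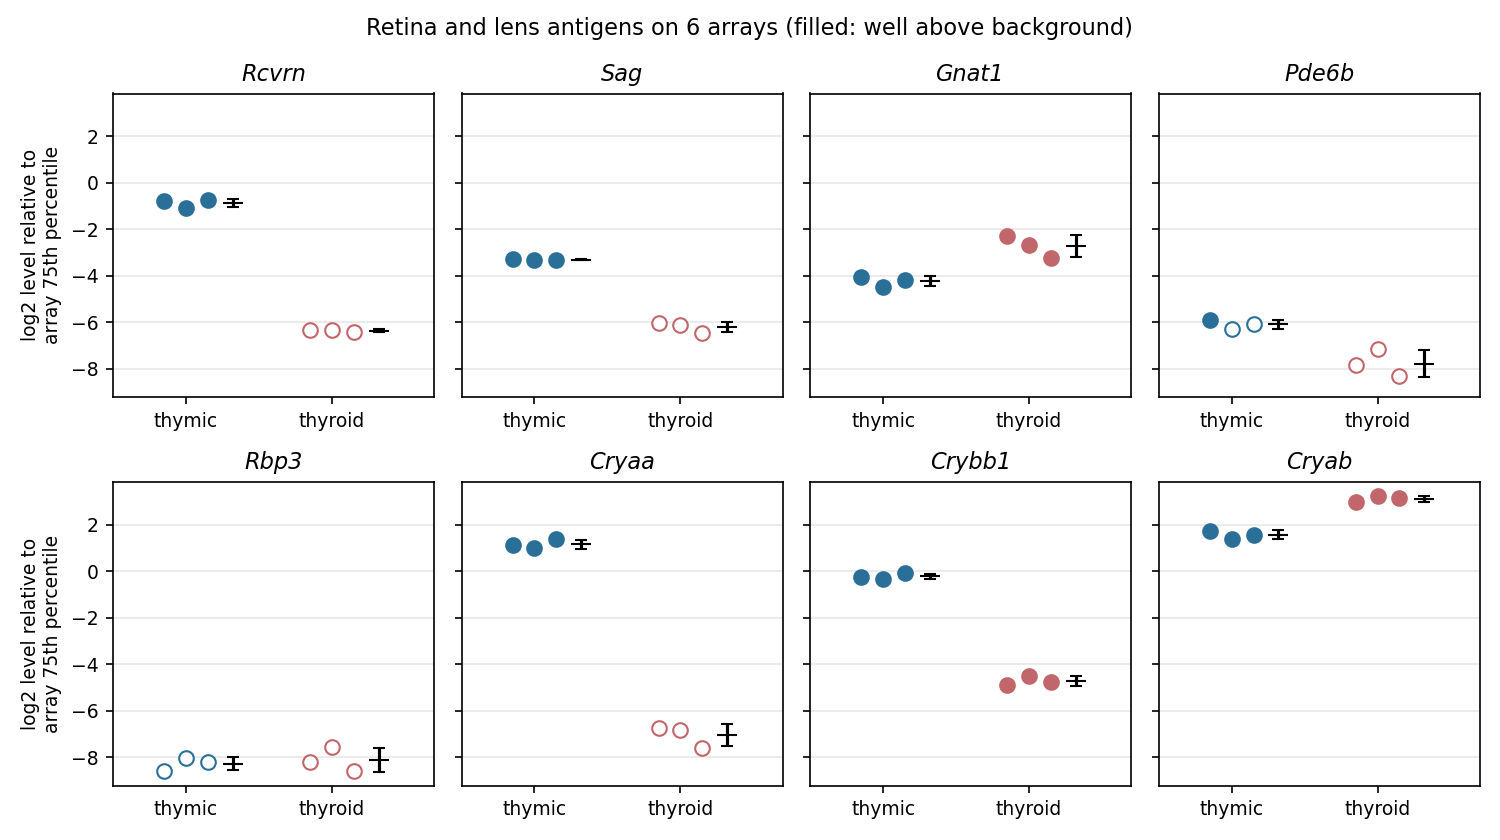
Level of each gene on each array, as log2 signal relative to the array's 75th percentile (y axis), for the probe that stands for the gene. Points are the 3 thymic (blue) and 3 thyroid (red) arrays, filled where the probe was well above background, and bars are the mean ± SD. Rcvrn, Sag, Cryaa and Crybb1 lie higher on every thymic array, Pde6b does too but close to background, Gnat1 and Cryab lie higher on every thyroid array, and Rbp3 is hollow throughout.

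Of the lens genes, Cryaa, the alpha A crystallin, which is largely restricted to the lens, had the largest log2 difference of the 6 antigens tested. Its probe at chr17:31410354-31410413 (mm8) read 1.12, 0.99 and 1.38 for thymic cells against -6.72, -6.81 and -7.58 for thyroid cells. The thyroid signals, between 3.51 and 7.21 units, were above background on no array, against 1309 to 1658 units in thymic cells. At this probe, thymic cells had at least 142 times the Cryaa signal, with a log2 difference of 8.20 (SE 0.25, limma adjusted p = 7.96e-07). The intron-spanning Cryaa probe read -1.45, -1.41 and -1.34 against -6.78, -6.67 and -6.04, and was above background in thyroid replicate 3 only among the thyroid samples. Its fitted log2 difference was 5.10 (SE 0.20), in the same direction, and rests on 2 thyroid signals that were not above background. This is 34.2-fold, below the bound of the first probe, so the 2 probes differ in size. By the intron-spanning probe, Cryaa would rank below Rcvrn (log2 5.48).

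Crybb1 encodes beta B1 crystallin, a structural protein of the lens fibre. Its probe A_52_P643798 read -0.23, -0.33 and -0.08 in thymic and -4.88, -4.49 and -4.74 in thyroid cells and was above background on all 6 arrays. The groups lay far apart relative to their SDs of 0.12 and 0.20. Crybb1 was 22.5-fold higher in thymic cells (log2 4.49, SE 0.14, limma adjusted p = 8.56e-07). Its other probe gave a fitted log2 difference of 4.87 (SE 0.18) with 1 thyroid array above background.

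Cryab, the alpha B crystallin, is a small heat shock protein that is also made in muscle, heart and glia. It was bright in both tissues and brighter in thyroid cells, with thymic values of 1.74, 1.37 and 1.57 and thyroid values of 2.97, 3.22 and 3.15. No thyroid value fell within the thymic range. Cryab was 2.94-fold higher in thyroid cells (log2 -1.56, SE 0.14, limma adjusted p = 7.02e-05). The other Cryab probe (chr9:50505406-50505465, mm8) gave 1.87-fold (log2 -0.90, SE 0.14, adjusted p = 0.00126 in a limma fit of 32370 probes), so the 2 probes had the same direction and unequal sizes.

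**Figure D2:**
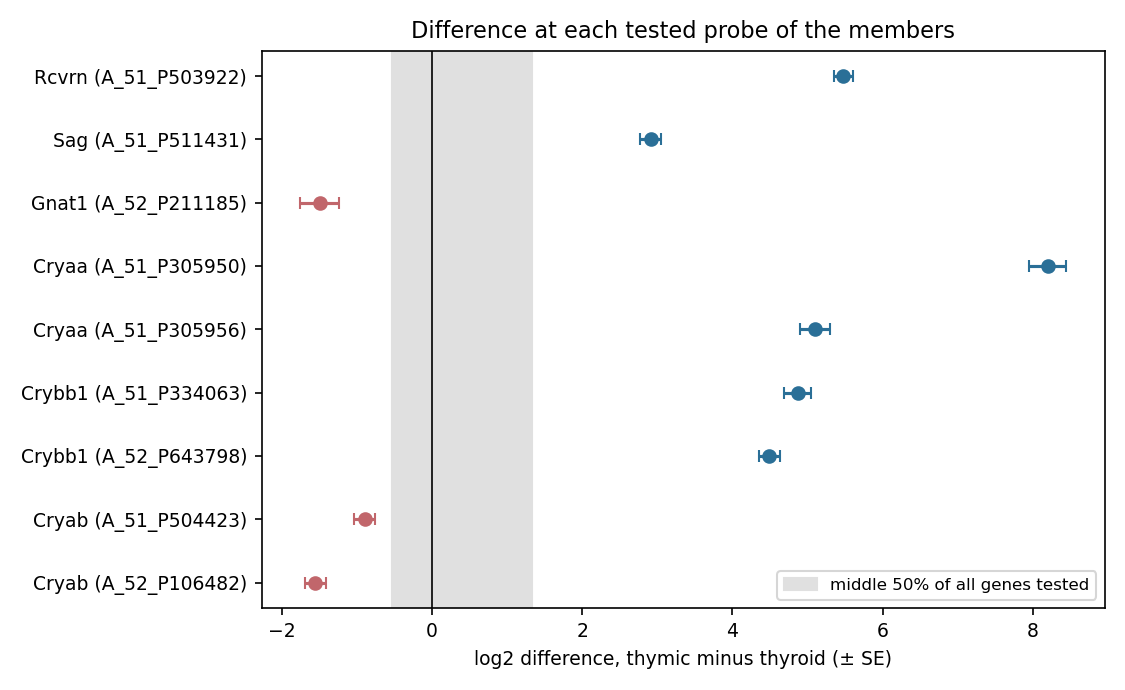
Log2 difference, thymic minus thyroid (x axis, ± SE from a limma fit over probes), for the 9 of 13 probes that passed the filter, with the middle 50% of all genes tested shaded from -0.54 to 1.33. Both probes of Cryaa, Crybb1 and Cryab point the same way, with 8.20 and 5.10 for Cryaa.

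In all, 4 of these genes were called towards thymic and 2 towards thyroid cells, where 69.8% of the 21395 genes tested were called, 39.3% as higher in thymic and 30.5% as higher in thyroid cells. The groups did not overlap for any of the 6, as for 76.4% of genes tested. Cryaa, Rcvrn and Sag passed the filter through the thymic arrays alone, so a difference in that direction was built into their selection. Of the 3 genes above background on all 6 arrays, Crybb1 was higher in thymic cells and Gnat1 and Cryab in thyroid cells; among the 17054 such genes on the arrays, 28.6% were called towards thymic and 36.2% towards thyroid cells. Because RNA was pooled from many cells, fewer cells with a transcript and less transcript per cell cannot be told apart.

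The thymic arrays and thyroid replicate 1 shared a slide, and thyroid replicates 2 and 3 were on another. Within the shared slide, which held 1 thyroid array, the log2 differences were 7.88 for Cryaa, 5.44 for Rcvrn and 4.67 for Crybb1. They were 2.75 for Sag, -1.41 for Cryab and -1.96 for Gnat1. A fit with the slide as a block must give the same values, because the other slide held only thyroid arrays. That fit is therefore no separate check. Normexp background correction adds 50 to every signal and so shrinks differences of dim probes. With it, the log2 differences were 4.63 for Cryaa, 2.51 for Rcvrn, 2.86 for Crybb1, 0.81 for Sag, -0.81 for Gnat1 and -1.53 for Cryab.

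The rod cascade as a whole was mixed. Of 20 listed rod genes, 15 were tested. Higher in thymic cells were 9 (60%), 1 (Gnat1) was higher in thyroid cells and 5 were not called. All genes tested gave 39.3% and 30.5% in these directions. The median log2 difference was 1.55 against 0.10 over all genes tested. Besides Rcvrn and Sag, the genes higher in thymic cells included Slc24a1, the rod sodium, calcium and potassium exchanger (at least 2.55-fold), and Gngt1, the rod transducin gamma subunit (at least 1.87-fold), both above background on no thyroid array. Both missed the threshold with normexp background correction (adjusted p = 0.0521 and 0.227), under which 4 rod genes were called towards thymic cells. With median centring, 4 rod genes were called towards thyroid cells. Only 7 of the tested genes were above background on all 6 arrays, and for these the median was -0.08. Pde6a, the alpha subunit of the rod phosphodiesterase, was above background on no array.

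Subunits and relatives of the retinal genes did not move as a unit. Gnat2, the cone transducin alpha subunit, was 1.7-fold higher in thyroid cells (log2 -0.76, limma adjusted p = 0.00266, or 0.0875 with normexp), and Gnat3 was not measured under its name. All 3 phosphodiesterase 6 genes tested were higher in thymic cells, beside 39.3% of all genes tested. They were the inhibitory subunits Pde6h (10-fold) and Pde6g (2.92-fold) and the prenyl-binding Pde6d (1.39-fold). However, Pde6d changed sign with median centring (log2 -0.06) and in the authors' deposited value table (log2 -0.05). The catalytic Pde6c was above background on 1 thymic and 1 thyroid array. Of the other arrestins, Arrb2 was 3.47-fold higher in thymic cells, Arrb1 2.55-fold higher in thyroid cells, and the cone arrestin Arr3 was above background nowhere. Among 9 recoverin family calcium sensors, 4 (44.4%, or 2 with normexp) were called towards thymic and 3 (5 with median centring) towards thyroid cells. Of all genes tested, 39.3% and 30.5% were called in these directions. The family's median was -0.04. After Rcvrn, Vsnl1 (at least 13.1-fold) and Hpcal4 (above background on 1 thyroid array, adjusted p = 0.0523 with normexp) were higher in thymic cells, and Hpcal1 (2.82-fold), Ncald (2.46-fold) and Ncs1 (2.35-fold) in thyroid cells. The median of this family turned positive without thymic replicate 2 (0.08) and without thyroid replicate 2 (0.14).

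Cone genes divided evenly, with 3 of 6 tested genes higher in each tissue and a median of 0.82. Beside these stand 39.3% of all genes tested called towards thymic and 30.5% towards thyroid cells. With normexp background correction, 2 cone genes were called in each direction, as among the 4 above background on all 6 arrays. Gnb3, the cone transducin beta subunit (68.8-fold), Pde6h and the channel subunit Cngb3 (at least 1.17-fold, adjusted p = 0.213 with normexp) were higher in thymic cells. Gngt2 (27.4-fold, above background on 2 of 3 thymic arrays), the exchanger gene Slc24a2 (12.4-fold) and Gnat2 were higher in thyroid cells. The median turned to -0.05 with normexp background correction. Both cone opsins, Opn1sw and Opn1mw, were above background on no array.

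Of 10 photoreceptor structural and synaptic genes tested, 8 (80%) were higher in thymic cells and 1 in thyroid cells, with a median of 2.98. Over all genes tested the shares were 39.3% and 30.5%. However, 5 of the 10 passed the filter through the thymic arrays alone. Among the 5 above background on all 6 arrays, 3 were called towards thymic and 1 towards thyroid cells, beside 28.6% and 36.2% of all such genes. Of these 3, Prom1 was 6.57-fold higher. Impg2 (log2 0.45) turned to -0.25 with quantile normalization and -0.09 with median centring. Unc119 (log2 0.67) missed the threshold with median centring (log2 0.14, limma adjusted p = 0.569). Impg2 and Unc119 also missed it in 4 and 3 of the single-array omissions. In thymic cells, Cdhr1 (also known as Pcdh21), a cadherin of the outer segment base, was higher at least 435-fold. The disc rim protein gene Prph2 was higher there at least 11.3-fold and Aipl1, a chaperone for phosphodiesterase 6, at least 16.6-fold. Rpgrip1, of the connecting cilium, was 1.69-fold higher in thyroid cells. Rp1, Rp1l1 and Impg1 were above background on no array.

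The list of the visual cycle and retinal pigment epithelium holds Rbp3, and 12 of its genes were tested. Of these, 5 (41.7%) were called towards thymic and 3 towards thyroid cells, beside 39.3% and 30.5% of all genes tested. The median was 0.21. It turned to -0.32 with median centring and -0.31 in the value table, where 5 were called towards thyroid cells. The retinol carrier Rbp4 (21.9-fold), the opsin-like Rgr (at least 3.93-fold) and the carrier of thyroxine and retinol-binding protein, Ttr (at least 2.23-fold, adjusted p = 0.136 with normexp), were higher in thymic cells, Rgr and Ttr being above background on no thyroid array. The retinol uptake receptor Stra6 (5.23-fold) and the retinaldehyde-binding Rlbp1 (2.82-fold), both above background on all 6 arrays, were higher in thymic cells as well. Mertk, the phagocytosis receptor (55.9-fold), Rdh11 (2.39-fold) and Lrat (2.28-fold) were higher in thyroid cells, although Lrat missed the threshold in 3 of the single-array omissions (adjusted p = 0.0592 without thymic replicate 2, the highest) and within slide 1 (log2 -0.47, adjusted p = 0.213). Rpe65, the retinoid isomerase, was above background nowhere.

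Of 13 retinal transcription factors, 7 were tested and all 7 were higher in thymic cells (median 3.64), beside 39.3% of all genes tested. However, 6 of the 7 passed the filter through the thymic arrays alone. Nrl, which specifies rods, was at least 9.77-fold, Atoh7, needed for ganglion cells, at least 9.11-fold and Rax, an eye field factor, at least 3.44-fold higher. Pax6, above background on all 6 arrays, was 4.29-fold higher in thymic cells. Crx and Otx2, both needed for photoreceptors, were above background on no array.

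**Figure D3:**
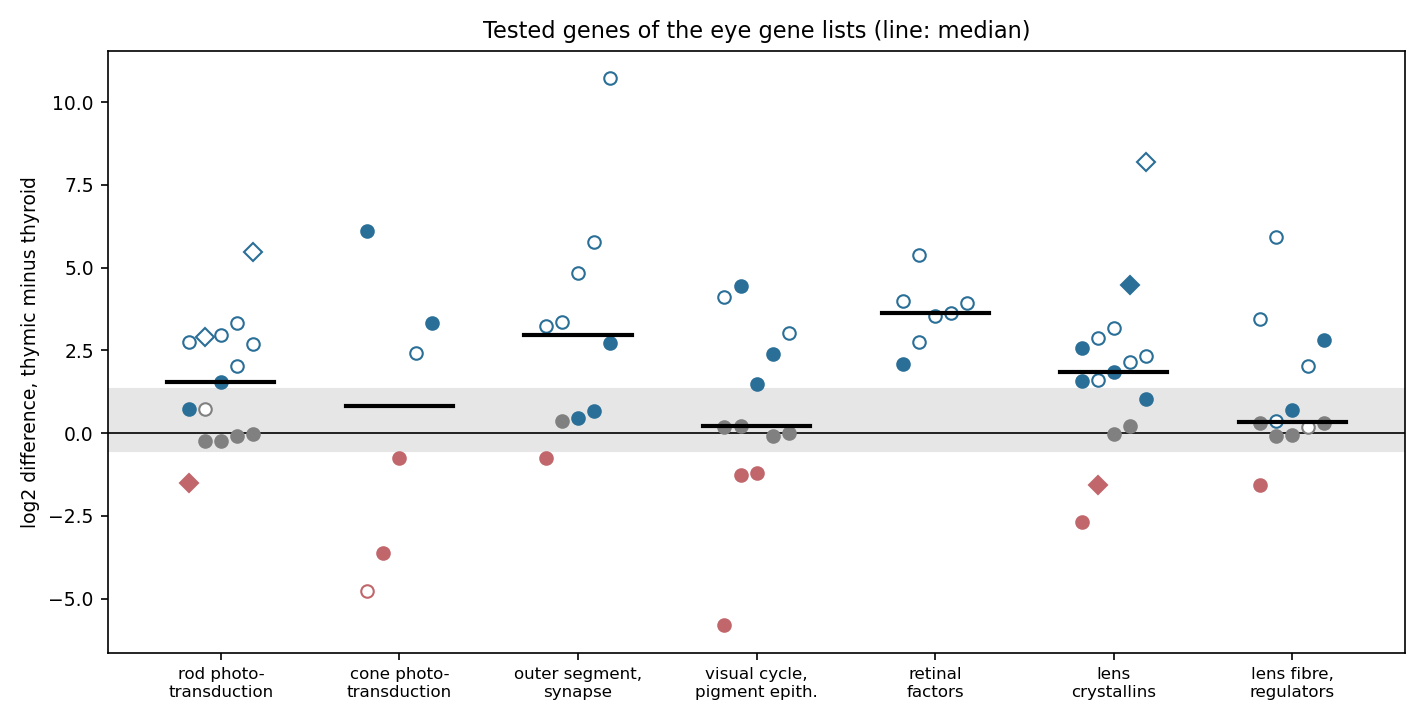
Log2 difference, thymic minus thyroid (y axis), of each tested gene in 7 eye gene lists. Diamonds are the retina and lens antigens, filled points are genes above background on all 6 arrays, blue and red mark a call towards thymic and thyroid cells, grey marks no call, lines are medians (3.64 for retinal factors, 0.21 for the visual cycle) and the shaded band is the middle 50% of all genes tested.

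All 15 crystallins on the arrays were above background on all 3 thymic arrays and 9 on all 3 thyroid arrays, where the shares over all genes were 76.2% and 63.2%. Higher in thymic cells were 11 (73.3%), higher in thyroid cells 2, and 2 were not called, with a median of 1.85. Over all genes tested, 39.3% and 30.5% were called in these directions. Only 9 of the 15 were above background on all 6 arrays, and the others passed the filter through the thymic arrays alone. After Cryaa and Crybb1, Cryba1 (above background on 1 thyroid array, fitted log2 difference 3.19) was also higher in thymic cells, and Crygn (6.41-fold) was higher in thyroid cells, as was Cryab. Crybb2 was 3.01-fold higher in thymic cells. Crybb3 (log2 0.22, 95% interval -0.34 to 0.77) and Crygs (log2 -0.02) were not called. The gamma crystallins are close copies of one another, and whether their probes read more than 1 member was not tested.

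Not every crystallin call was firm. Cryba2 (log2 1.85, SE 0.68, adjusted p = 0.0465) missed the threshold without thyroid replicate 1 (log2 1.44, adjusted p = 0.141) and under 4 other single-array omissions, and with median centring (log2 1.31, adjusted p = 0.11). Cryge (log2 2.15, at least 1.37-fold) also missed it without thyroid replicate 1 (log2 1.87, adjusted p = 0.0524). Crygd, Cryge and Crygf missed it with normexp (adjusted p = 0.112, 0.625 and 0.0653) and with quantile normalization (0.203, 0.228 and 0.102). Among the 9 crystallins above background on all 6 arrays, 5 were called towards thymic and 2 towards thyroid cells. The shares over all such genes were 28.6% and 36.2%.

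**Figure D4:**
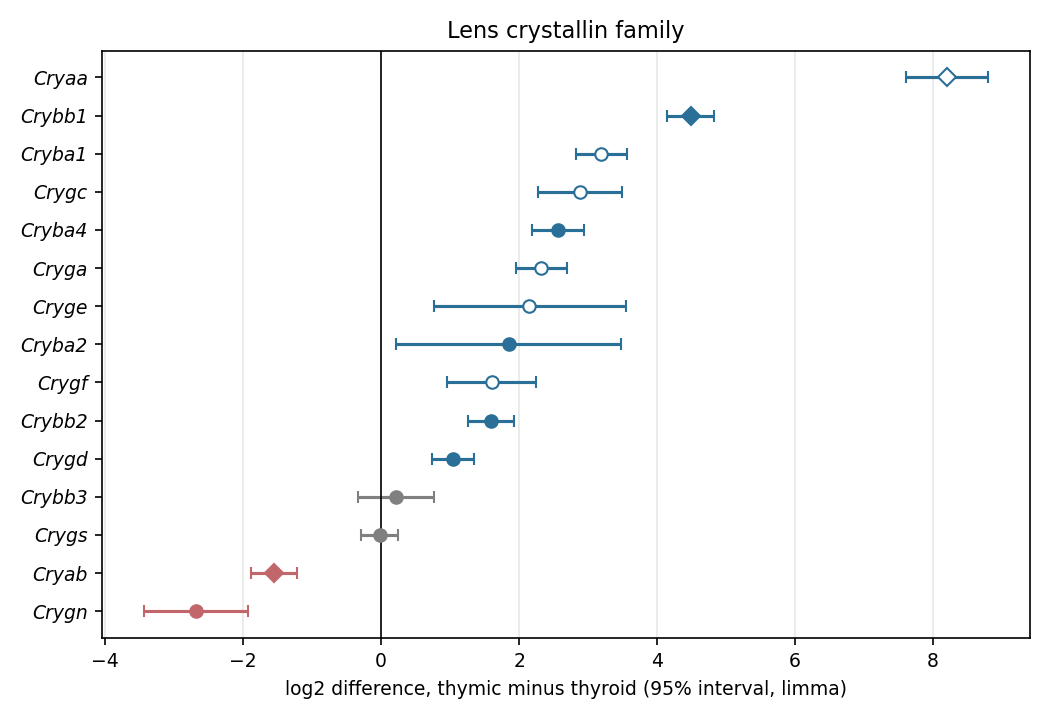
Log2 difference, thymic minus thyroid (x axis, 95% interval from limma), of the 15 crystallins on the arrays. Diamonds are Cryaa, Crybb1 and Cryab, filled symbols are above background on all 3 thyroid arrays, and colour gives the call. Cryaa at 8.20 and Crygn at -2.68 mark the ends of the range.

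Other lens genes were less uniform. Of 12 lens fibre and lens regulator genes tested, 6 (50%) were higher in thymic cells and 1 in thyroid cells. The shares over all genes tested were 39.3% and 30.5%. The median was 0.34. It turned to -0.19 with median centring, -0.18 in the value table and -0.06 with quantile normalization, where 4 were called towards thyroid cells. Mip, the water channel of the lens fibre (at least 15.8-fold), Lgsn (at least 2.72-fold, adjusted p = 0.0915 with normexp) and Grifin (7.12-fold) were higher in thymic cells, and Foxe3, a lens epithelium factor, was 2.95-fold higher in thyroid cells. As small heat shock proteins, Cryaa and Cryab belong to a list of 8 with a median of -0.51 (0.21 with the median over probes). Of the 8, 3 (37.5%) were called towards thymic and 4 towards thyroid cells, beside 39.3% and 30.5% of all genes tested. Hspb3 (at least 19.2-fold) was higher in thymic cells, and Hspb7 (2.12-fold) and Hspb6 (1.78-fold) were higher in thyroid cells, as was Cryab. Hspb2, which lies beside Cryab on the chromosome, was 1.31-fold higher in thymic cells (log2 0.38, adjusted p = 0.0157), but missed the threshold without thymic replicate 3 (log2 0.37, adjusted p = 0.0582) and turned to -0.15 with median centring and -0.14 in the value table.

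Across the 7 lists of rod, cone, outer segment, visual cycle, retinal factor, crystallin and lens fibre genes, 96 eye genes other than the 8 antigens were on the arrays and 71 were tested. Of these, 45 (63.4%) were called towards thymic and 9 (12.7%) towards thyroid cells, with a median of 1.60, beside 39.3% and 30.5% of all genes tested. Above background on all 3 arrays of a tissue were 72.9% of the 96 in thymic cells and 42.7% in thyroid cells, where all genes gave 76.2% and 63.2%. The filter favoured the thymic direction here too. Only 40 of the 71 were above background on all 6 arrays, beside 17054 of all 21395 genes tested. The called shares of the 71 and of all genes tested are therefore not on equal terms.

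**Figure D5:**
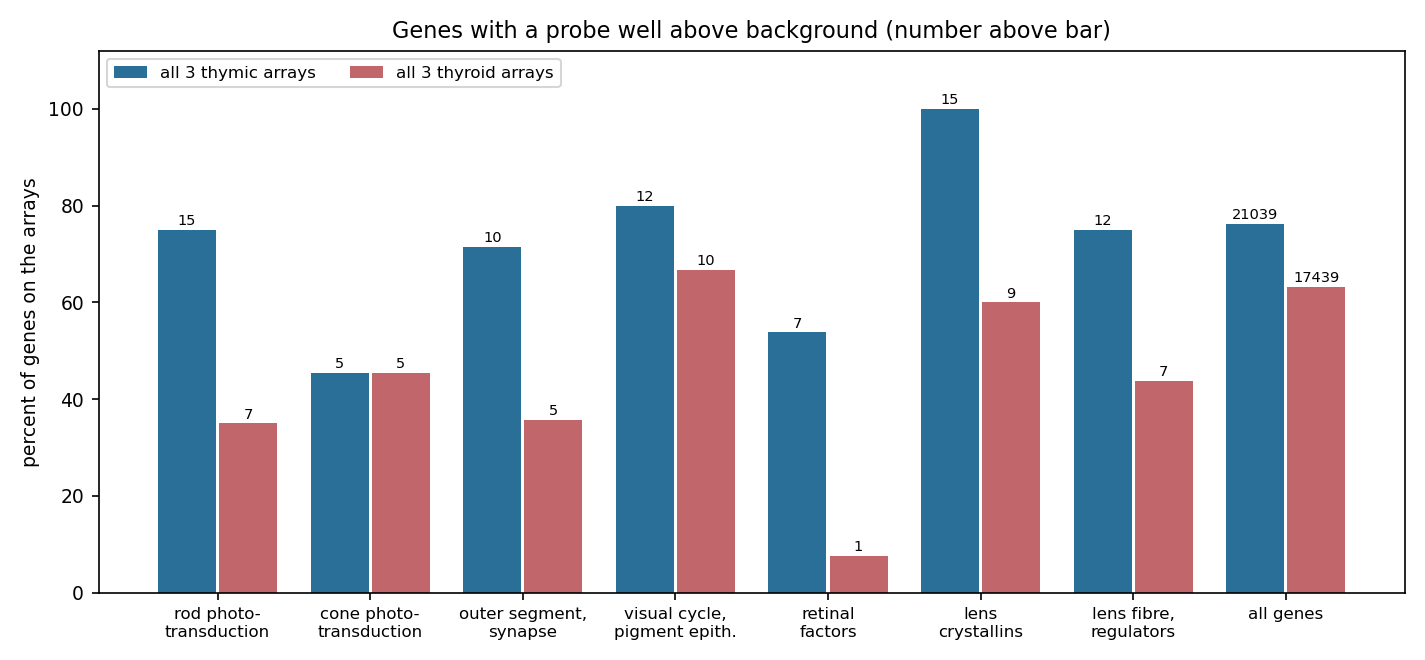
Percent of the genes of each eye list on the arrays (y axis) with a probe well above background on all 3 thymic (blue) or all 3 thyroid (red) arrays, with the number of genes above each bar and all genes at the right. Crystallins reach 15 of 15 in thymic cells, and retinal factors 7 of 13 in thymic against 1 in thyroid cells.

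Markers of most other cell types examined differed between the tissues as well. Called towards thymic and thyroid cells were 39.3% and 30.5% of all genes tested, beside which the counts below stand. All 13 endothelial genes were higher in thyroid cells, and the log2 of their summed level lay between 2.61 and 2.75 in the thymic group and 9.71 and 10.24 in the thyroid group. Of 8 C cell genes, 5 were higher in thyroid cells and 3 in thymic cells (summed level 8.99 to 9.84 in thyroid and 6.53 to 6.95 in thymic cells), and 2 of 3 parathyroid genes were higher in thyroid cells (6.47 to 8.66 against 3.67 to 5.58). Higher in thymic cells were 11 of 13 T cell genes tested (summed level 1.97 to 2.92 against 0.99 to 1.07). So were 7 of 8 B cell genes (2.21 to 2.46 against 1.85 to 2.12). The same held for 10 of 11 myeloid genes (6.72 to 6.83 against 1.30 to 2.14). It also held for 8 of 10 skeletal muscle genes (3.27 to 3.42 against 0.01 to 0.60). Above background on all 6 arrays were only 5 of 13 T cell, 2 of 8 B cell, 9 myeloid and 4 muscle genes. The rest of those tested passed the filter through the thymic arrays alone. A summed level adds signals of different probes, so 1 bright gene can set it. Lyz2 of the myeloid list alone read 6.60 to 6.74 on the thymic arrays. Pth alone read 3.65 to 5.57 there and 6.47 to 8.66 on the thyroid arrays. Of 12 Schwann cell and neuronal genes, 7 were called towards thymic and 2 towards thyroid cells (5.23 to 5.34 against 4.66 to 4.86). The pigment cell genes Tyr and Tyrp1 were above background on no array, and 3 of 4 pigment cell genes tested were higher in thymic cells. Of 9 fibroblast and pericyte genes, 1 was called towards each tissue and 7 were not called (summed level 5.37 to 5.83 in thymic and 4.76 to 5.71 in thyroid cells). The part of these cell types in the differences of the retina and lens antigens was not tested.

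For each antigen tested, the 2 genes with the nearest profile over the 6 arrays were found by the root mean square (RMS) difference after centring each gene, as a description with no test. These were Cenpm (RMS 0.06) and Cdca3 (0.08) for Sag, Bmp3 (0.08) and Trem2 (0.11) for Rcvrn, and Thrsp (0.12) and Fut4 (0.12) for Gnat1. In the lens group they were Sprr2f (0.07) and Ifi27l2b (0.11) for Cryaa, Crabp2 (0.10) and Tekt5 (0.11) for Crybb1, and Fundc2 (0.08) and Trmt61b (0.08) for Cryab. None of these 12 is on an eye list.

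Promoters of 5 of the 8 genes were in the RefSeq table (build GRCm38.p6): Rbp3, Sag, Pde6b, Cryaa and Crybb1. The 250 bases before the gene start are shown for Cryaa, Crybb1 and Sag, the antigens of that table that were higher in thymic cells, with capitals for each motif match on either strand.
Cryaa promoter at chr17:31677681-31677930: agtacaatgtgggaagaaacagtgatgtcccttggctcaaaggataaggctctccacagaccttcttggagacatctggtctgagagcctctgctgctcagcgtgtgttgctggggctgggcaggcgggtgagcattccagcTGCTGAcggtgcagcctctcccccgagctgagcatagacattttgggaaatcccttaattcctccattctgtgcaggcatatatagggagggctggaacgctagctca
Crybb1 promoter at chr5:112255570-112255819: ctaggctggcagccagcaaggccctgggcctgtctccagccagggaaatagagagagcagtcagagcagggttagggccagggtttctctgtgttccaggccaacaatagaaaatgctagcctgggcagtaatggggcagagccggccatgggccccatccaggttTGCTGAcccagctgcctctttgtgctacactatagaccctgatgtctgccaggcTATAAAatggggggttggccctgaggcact
Sag promoter at chr1:87803430-87803679: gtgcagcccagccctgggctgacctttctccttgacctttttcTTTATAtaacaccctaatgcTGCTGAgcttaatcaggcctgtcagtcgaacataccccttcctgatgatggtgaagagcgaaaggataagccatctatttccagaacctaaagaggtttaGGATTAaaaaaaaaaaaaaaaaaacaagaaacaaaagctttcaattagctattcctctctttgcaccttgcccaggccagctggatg

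The searched motifs were TATAAA (the TATA box core), TAATCC (the core of Crx sites), TGCTGA (the core of Maf recognition elements) and GAANNTTC (the core of heat shock elements). They occur in 12.4%, 6.25%, 16.1% and 6.69% of the 32851 promoters of the same length. TGCTGA occurred in all 5 antigen promoters, with its first base at -108 in Cryaa, -84 in Crybb1, -187 in Sag, -155 in Rbp3 and -8 in Pde6b. TAATCC occurred at -87 in Sag and at -69 in Rbp3, and TATAAA at -30 in Crybb1 and -207 in Sag. GAANNTTC occurred in none of the 5. The 5 promoters had a median GC content of 49.6% against 52.4% over all promoters and a median of 2 CpG sites against 6. A match is a run of letters and shows neither a bound site nor a cause.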

How the data were processed

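Trizol RNA, labelled with Cy3 per the labels, was hybridised to 6 single-colour Agilent arrays. Per the file headers, the deposited intensity values were made with Agilent Feature Extraction 10.5.1.1, after detrending and subtraction of background, a surrogate replaces signals that do not exceed it, and probe positions are on mm8. The authors also deposited a table of linear ratio values, which equal the processed signal divided by the array's median (median 1 in each column).

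Control and outlier spots were left out and spots of a probe averaged. The array's 75th percentile over probes was subtracted on the log2 scale. Testing required the stronger detection flag on every array of 1 group, and the brightest such probe stood for its gene. Names came from RefSeq (GRCm38.p6): accessions named 24363 probes, symbols 6300, unique synonyms 2426, and the file's name was kept for 8072. The test was limma's (version 3.58.1, R 4.3.3), two-sided and without covariates, with Benjamini-Hochberg adjustment over 21395 genes and a threshold of 0.05. The fit was tested on simulated data. Named were the 8 antigens, up to 3 genes per direction in each list, preset paralogues and markers, and the 2 nearest profiles per antigen, while small or untested list members were added where a sentence turns on them, and a few genes are not reported here. The antigens and lists were chosen with earlier results of these data known. Alternatives were median centring, quantile normalization, normexp (offset 50), use of the value table, other filters and flags, the median over probes, slide and replicate blocks, slide 1 alone (which takes the spread of its 1 thyroid array to equal that of the thymic arrays), trended variances, and leaving out each array.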

Additional observations from a re-analysis of the deposited data

How the results depend on the processing

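All 6 tested antigens kept their direction and call in every setting run, with ranges of 4.63 to 8.36 for Cryaa, 2.51 to 5.58 for Rcvrn, 2.86 to 4.68 for Crybb1, 0.81 to 2.99 for Sag, -2.09 to -1.23 for Cryab and -2.29 to -0.81 for Gnat1. Cryaa, Rcvrn and Sag could not be fitted where all 6 arrays had to be above background, and there 1 antigen was called higher in thymic cells instead of 4. With the weaker flag, 6 instead of 3 antigens were detected on all 3 thyroid arrays. Median list differences changed sign in rod genes (-0.08, probes above background on all 6 arrays), cone genes (-0.05 with normexp, -0.26 with no filter), visual cycle genes (-0.32 with median centring, -0.31 in the value table), lens fibre genes (-0.06 with quantile normalization, -0.19 with median centring, -0.18 in the value table) and small heat shock proteins (0.21 with the median over probes). The recoverin family gave 0.08 without thymic replicate 2 and 0.14 without thyroid replicate 2. The cause of these was not tested.

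Median centring moved the median of all genes by -0.54, the value table by -0.53 and quantile normalization by -0.15. Of all calls, 56.3% were towards thymic cells in the reported fit, 48% with quantile normalization, 35.6% with median centring, 35.9% in the value table and 44% with probes above background on all 6 arrays; median centring and the value table gave 11043 and 10968 calls towards thyroid cells against 6517, and 5035 calls towards thymic cells against 8410 came from the stricter filter. Arrays with the same replicate number did not deviate together (correlations 0.01, -0.07 and -0.05), and the replicate block changed no antigen's call, with Gnat1 at -1.50 (adjusted p = 0.00363). Signals near background limit Rbp3, Pde6b and the dim sides of Cryaa, Rcvrn and Sag.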

Other observations

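The named genes nearest to each antigen on the chromosome were looked at after the antigens' values were known. On each side, the closest gene in RefSeq order that was on the arrays and had no predicted or Riken symbol was taken. It was up to 6 genes away, and all 16 were tested. Of these 16 genes, 5 were higher in thymic cells, 7 in thyroid cells and 4 were not called, where 39.3% and 30.5% of all genes tested were called in these directions. Cryba4, a crystallin beside Crybb1, was 5.91-fold higher in thymic cells, while Tpst2 on the other side was 4.29-fold higher in thyroid cells. U2af1 (log2 0.18, 95% interval -0.47 to 0.83) and Sik1 (log2 0.46, 95% interval -0.08 to 0.99), on the sides of Cryaa, were not called. Both genes beside Gnat1, the amino acid transporter Slc38a3 (4.63-fold) and the semaphorin Sema3f (2.36-fold), were higher in thyroid cells, as was Gnat1. Beside Rcvrn, Dhrs7c exceeded its thyroid level at least 2.77-fold in thymic cells and Glp2r was 1.31-fold higher in thyroid cells, but Glp2r missed the threshold in 3 single-array omissions (highest adjusted p = 0.0549, without thymic replicate 1) and with normexp (adjusted p = 0.126). Gdf2, next to the undetected Rbp3, was above background on the thymic arrays only and at least 1.27-fold higher there, though not called with normexp (adjusted p = 0.52).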
